A study of Mus musculus with 9 samples.

Results

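The nuclear receptors Nr4a1, Nr4a2 and Nr4a3 form a family of 3 genes, taken here as the rows of the deposited count table with those symbols. These are 3 of its 55335 rows, and all 3 were among the 21765 genes with enough reads to be tested. Bulk RNA came from the prelimbic area of the medial prefrontal cortex, which takes part in pain and emotion, collected from 9 mice on day 14 after surgery. R-HNK mice had spared nerve injury (SNI), in which some branches of the sciatic nerve are cut and another is spared, and were given the ketamine metabolite (2R,6R)-hydroxynorketamine at 10 mg/kg. Injured saline mice had the same injury and were given saline. Sham mice had the sham operation and were given saline. Each group had 3 mice with 1 library each, so the R-HNK and injured saline mice share the injury and the injured saline and sham mice share the saline. Strain, sex, age, the route of R-HNK and the time from the dose to tissue collection are not given in the sources used here.

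Nr4a1 (also called Nur77), Nr4a2 (Nurr1) and Nr4a3 (Nor1) are orphan nuclear receptors: their ligand pocket is filled by bulky side chains, so their activity follows mainly from how much protein the cell makes. All of them can be transcribed within minutes of a calcium or cyclic AMP signal, through the factors CREB, MEF2 and SRF, which makes them immediate early genes of active neurons. As proteins they bind DNA alone at the NBRE motif, as pairs at longer elements, and, for Nr4a1 and Nr4a2, together with retinoid X receptors. In brain the family takes part in long-term memory, and Nr4a2 is also needed to make dopamine neurons and is held at a steady level in claustrum and deepest-layer cortical neurons.

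On the GRCm38 (mm10) assembly Nr4a1 lies on the plus strand of chromosome 15 from 101254269 to 101274795, Nr4a2 on the minus strand of chromosome 2 from 57106830 to 57124003, and Nr4a3 on the plus strand of chromosome 4 from 48045153 to 48086447. No other annotated gene overlaps any of them. Their promoters are shown because all 3 hold the same number of copies of TGACG, the core of the cyclic AMP response element (CRE) that CREB binds, read on either strand and marked here by capitals. RefSeq windows on GRCm38.p6, from 250 bases before to 50 after each start, were searched on both strands. The first line below is the stretch before the Nr4a1 start (chr15:101266596-101266845, plus strand), the next that before the Nr4a2 start (chr2:57124004-57124253, minus strand). The last lines are short stretches before the RefSeq start of Nr4a3 (chr4:48045066-48045086, chr4:48045084-48045106 and chr4:48045150-48045170, plus strand). They are short because the GENCODE model of Nr4a3 starts earlier than the RefSeq one, at 48045153, so that 152 of the 250 bases lie in its exons, among them nearly all of the last stretch with its core. The GENCODE model of Nr4a1 also starts earlier, at 101254269, so the Nr4a1 stretch lies inside that gene, though with 0 bases in annotated exons.
Nr4a1: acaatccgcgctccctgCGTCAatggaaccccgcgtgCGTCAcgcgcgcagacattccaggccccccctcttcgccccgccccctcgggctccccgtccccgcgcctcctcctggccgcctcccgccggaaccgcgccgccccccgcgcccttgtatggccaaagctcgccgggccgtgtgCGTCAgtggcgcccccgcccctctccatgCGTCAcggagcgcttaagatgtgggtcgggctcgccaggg
Nr4a2: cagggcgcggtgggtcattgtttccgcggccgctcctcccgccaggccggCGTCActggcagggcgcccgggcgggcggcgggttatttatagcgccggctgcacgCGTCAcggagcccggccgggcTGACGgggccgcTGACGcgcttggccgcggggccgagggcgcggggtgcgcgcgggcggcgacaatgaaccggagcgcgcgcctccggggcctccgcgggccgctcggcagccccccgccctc
Nr4a3, first stretch: gaggagggTGACGtagcgtcc
Nr4a3, next stretch: tcccatgtCGTCAcatTGACGtc
Nr4a3, last stretch: ggcataaaTGACGtgccgaga

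Each of the 3 promoters held 4 CRE cores, all before the RefSeq start, though the last one of Nr4a3 lies within the GENCODE exon. Among all 32851 promoter windows of this length, 20.8% held at least 1 and 0.231% held at least 4. In Nr4a1 all 4 read CGTCA on the strand shown, beginning at -233, -213, -69 and -40 from the start. In Nr4a2 they began at -200, -144, -123 and -111, and in Nr4a3 at -231, -213, -205 and -147. None of these cores was part of a full CRE, TGACGTCA, which 1.79% of windows held. The EGR site, GCGGGGGCG or GCGTGGGCG, was matched 1 time in Nr4a1 and in neither of the other windows, against 3.47% of all windows. A MEF2 site was matched 1 time in Nr4a2 only, against 3.19% of all windows. The NBRE, AAAGGTCA, the AP-1 site, TGANTCA, and the SRF-binding CArG box were not matched in any of the 3 windows, against 1.51%, 7.81% and 1.63% of all windows. A match describes letters and does not show that a factor binds there.

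Library totals ran from 53624337 to 73586375 counts, and each Nr4a gene had at least 1296 counts in every library. Excitatory cortical markers were high throughout, with Slc17a7, the vesicular glutamate transporter of these neurons, between 1477 and 2089 CPM, which are counts scaled to the same library total. The libraries were not equal in tissue. Summed over 15 markers, striatal medium spiny neuron genes reached 480 to 1408 CPM in R-HNK mice, 460 to 516 CPM in injured saline mice and 510 to 2131 CPM in sham mice. R-HNK replicates 1 and 3 and sham replicates 2 and 3 were the raised libraries. In bulk RNA, fewer cells of a type and less RNA per cell cannot be told apart.

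Per length of exon, Nr4a1 was the most abundant of the 3. Its level was 37.4 ± 6.66 RPKM in R-HNK mice, 67.1 ± 1.06 RPKM in injured saline mice and 25.1 ± 4.19 RPKM in sham mice (mean ± SD, n = 3 each). RPKM here are CPM per kilobase of exon. Among 40 nuclear receptor genes with a value, Nr4a1 ranked 2 in R-HNK mice, 2 in injured saline mice and 3 in sham mice by mean RPKM. Thra, a thyroid hormone receptor, ranked first in each group, and Nr1d1, a clock repressor, was the other neighbour, but these overlap on opposite strands and their own counts are uncertain. Nr4a2 stood at 7.62 ± 2.99, 8.95 ± 3.52 and 7.02 ± 1.03 RPKM in R-HNK, injured saline and sham mice. Nr4a3 stood at 6.73 ± 1.04, 11.7 ± 1.20 and 4.99 ± 0.214 RPKM in the same groups. The levels of Nr4a2 and Nr4a3 lay within the spread of the mice in R-HNK and injured saline mice, while in sham mice every Nr4a2 value was above every Nr4a3 value.

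**Figure D1:**
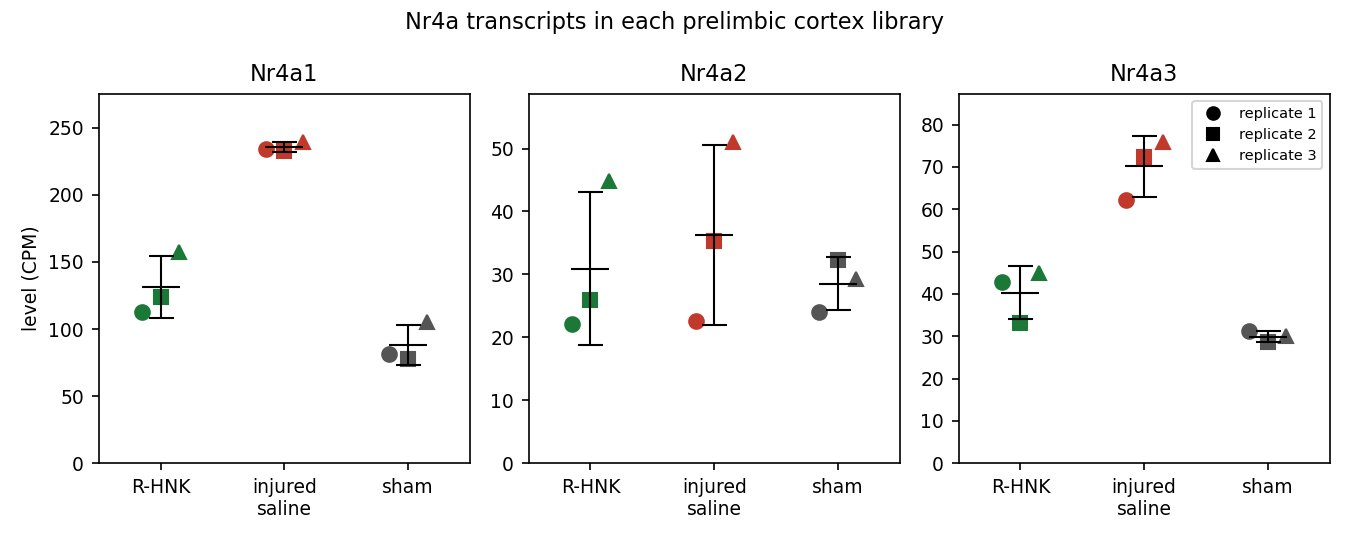
Level in CPM (vertical axes from 0) of Nr4a1, Nr4a2 and Nr4a3 in the R-HNK, injured saline and sham libraries, 1 symbol per mouse with the shape giving the replicate, and the mean ± SD as black bars (n = 3). The Nr4a1 and Nr4a3 values of injured saline mice lie above all the others, while Nr4a2 spreads from 22.5 to 51.1 CPM within that group alone.

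The first comparison asks what nerve injury did in saline-treated mice. Nr4a1 and Nr4a3 rose, by more than any difference between mice of a group, and Nr4a2 did not pass the test. Nr4a1 measured 234, 233 and 239.6 CPM in the injured saline mice, against 81.7, 77.6 and 105 CPM in the sham mice. The lowest injured mouse was more than double the highest sham mouse, and the injured mice were nearly alike, with a coefficient of variation of 1.58% against 16.7% in sham mice. The log2 fold change of Nr4a1 was 1.42 ± 0.13 (SE, edgeR adjusted p = 0.000604), or 2.67-fold. Nr4a3 measured 62.1, 72.3 and 75.9 CPM in the injured saline mice, against 31.1, 28.6 and 29.9 CPM in the sham mice. Again the groups did not overlap, and here it was the sham mice that were close to each other. Its log2 fold change was 1.23 ± 0.11 (adjusted p = 0.000271), or 2.35-fold.

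So 2 of the 3 genes passed, where 1.07% of all tested genes did and 0.515% did as higher. By p, Nr4a3 ranked 5 and Nr4a1 ranked 13 of all genes tested. By size of change they were less extreme, at ranks 177 and 138 of the 15725 genes whose mean log2 CPM was 0 or more. Groups that did not overlap, with the injured saline mice higher, were found for 10.9% of all genes. Nr4a2 measured 22.5, 35.3 and 51.1 CPM in the injured saline mice, against 24.0, 32.3 and 29.2 CPM in the sham mice. The injured mice lay on both sides of the sham mice. Its log2 fold change was 0.35 ± 0.37 (adjusted p = 0.695), with a 95% interval from -0.53 to 1.23, which reaches from a fall to nearly the size of the Nr4a3 change.

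Both calls held in each of the 9 fits that left out 1 library. Nr4a1 is also strongly expressed in striatum, so its values were set beside the striatal markers. Within the sham group it measured 77.6 and 105 CPM in the 2 raised libraries and 81.7 CPM in the other. Without the 4 raised libraries the log2 fold changes of Nr4a1 and Nr4a3 were 1.53 and 1.18 (adjusted p = 1.43e-05 and 0.00144), set against sham replicate 1 alone, which is then assumed to vary like the injured mice. Other marker lists differed between the groups as well. Over all 21765 genes tested, 121 passed as lower and 112 as higher in this comparison. The 10 neuroblast markers, which include interneuron genes such as Dlx1, summed to 129 to 131 CPM in injured saline mice and 223 to 267 CPM in sham mice, and 9 of the 10 passed as lower. Fibroblast markers summed to 25.1 to 28.6 CPM in injured saline mice and 40.7 to 60.2 CPM in sham mice, with 3 of 6 lower. Excitatory neuron markers summed to 7185 to 7876 CPM in injured saline mice and 5723 to 7455 CPM in sham mice, with 1 of 8 higher. Deep layer markers summed to 370 to 407 CPM in injured saline mice and 340 to 414 CPM in sham mice, with 2 of 6 higher. Inhibitory interneuron markers summed to 974 to 1000.2 CPM in injured saline mice and 1058 to 1290.4 CPM in sham mice, with 2 of 10 lower. Astrocyte markers summed to 644 to 755 CPM in injured saline mice and 791 to 952 CPM in sham mice, and none of the 5 passed. With the deep layer score as a covariate, Nr4a1 and Nr4a3 had log2 fold changes of 1.395 and 1.157 (edgeR adjusted p = 0.00146 and 0.000354). The part of the other lists of this kind in the Nr4a results was not tested.

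The second comparison asks what R-HNK did in injured mice. Nr4a1 and Nr4a3 fell, and the R-HNK and injured saline values did not overlap for either. Nr4a1 measured 112, 124 and 157 CPM in the R-HNK mice, against 234, 233 and 239.6 CPM in the injured saline mice. Every R-HNK mouse was below every injured saline mouse. The log2 fold change was -0.84 ± 0.13 (adjusted p = 0.0406). Nr4a3 measured 42.9, 33.2 and 44.8 CPM in the R-HNK mice, against 62.1, 72.3 and 75.9 CPM in the injured saline mice. Its log2 fold change was -0.80 ± 0.11 (adjusted p = 0.0134). R-HNK replicate 2 was the lowest for Nr4a3 but the middle one for Nr4a1.

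With 2 of the 3 genes passing, the share of all tested genes that passed was 0.119%, and 0.0827% did so as lower. By p, Nr4a3 ranked 11 and Nr4a1 ranked 25 of the 26 genes called, so Nr4a1 sat close to the threshold. Groups that did not overlap, with the R-HNK mice lower, were found for 6.59% of all genes. Nr4a2 measured 22.04, 26.0 and 44.8 CPM in the R-HNK mice, against 22.5, 35.3 and 51.1 CPM in the injured saline mice. The ranges nearly coincide. Its log2 fold change was -0.23 ± 0.37 (adjusted p = 0.914), with a 95% interval from -1.11 to 0.64.

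The falls of Nr4a1 and Nr4a3 kept their direction in all fits, but their calls were lost in several fits that left out 1 library. Nr4a1 missed the threshold without injured saline replicate 1, 2 or 3 (adjusted p = 0.173, 0.202 and 0.286) and without R-HNK replicate 1 or 2 (0.159 and 0.142), with 8.98e-08 to 0.286 as the span over every setting. Nr4a3 missed it without injured saline replicate 2 or 3 (0.116 and 0.0908) and without R-HNK replicate 1 (0.061), with a span of 5.30e-08 to 0.116. With the striatal score as a covariate over all 9 libraries, Nr4a1 missed the threshold (-0.94, edgeR adjusted p = 0.0518) and Nr4a3 passed (-0.87, 0.0122). Nr4a1 also missed it with no filter on low counts (-0.84, edgeR adjusted p = 0.0835). When the 4 striatal-rich libraries were left out, Nr4a1 stood at -0.93 and Nr4a3 at -1.08, with R-HNK replicate 2 as the lone treated mouse. The neuroblast markers summed to 193 to 236 CPM in R-HNK mice, against 129 to 131 CPM in injured saline mice, with 5 of 10 higher. Over all 21765 genes tested, 8 passed as higher in this comparison. Excitatory neuron markers summed to 6560 to 7074 CPM in R-HNK mice, against 7185 to 7876 CPM in injured saline mice, and fibroblast markers to 33.5 to 45.7 CPM against 25.1 to 28.6 CPM, with none passing in either list. Neither pair of ranges overlaps, and the part of these markers in the falls was not tested.

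The third comparison, of R-HNK with sham mice, asks how far the treated injured mice stood from mice with no injury. None of the 3 genes passed in edgeR, where 1 gene of all tested passed, or 0.00459%. Nr4a1 averaged 131 ± 23.4 CPM in R-HNK mice and 88.0 ± 14.7 CPM in sham mice. In the edgeR fit its log2 fold change was 0.58 ± 0.13, with an adjusted p of 1.00 and an unadjusted p = 0.00105. Nr4a3 averaged 40.3 ± 6.23 CPM in R-HNK mice and 29.9 ± 1.28 CPM in sham mice (SD, n = 3 each). In the edgeR fit its log2 fold change was 0.43 ± 0.11, with an unadjusted p = 0.00182. For both genes every R-HNK mouse was above every sham mouse, as for 4.43% of all genes. Before adjustment 769 genes had p under 0.05. By p, Nr4a1 ranked 15 and Nr4a3 ranked 25 of all genes. With DESeq2, Nr4a1 passed (adjusted p = 0.0324) and Nr4a3 did not (0.355), and with limma-voom neither did (0.588 and 0.475). With the 4 striatal-rich libraries left out, Nr4a1 stood at 0.60 and Nr4a3 at 0.09, from 1 R-HNK and 1 sham mouse. Nr4a2 averaged 30.9 ± 12.2 CPM in R-HNK mice and 28.5 ± 4.19 CPM in sham mice, a log2 fold change of 0.12 ± 0.37, whose direction turned under some settings. The 3 comparisons share libraries in pairs and are not independent of each other. In a test of any difference among the 3 groups, Nr4a1 and Nr4a3 passed (adjusted p = 0.00159 and 0.000525) and Nr4a2 did not (0.917), where 0.381% of all genes passed.

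**Figure D2:**
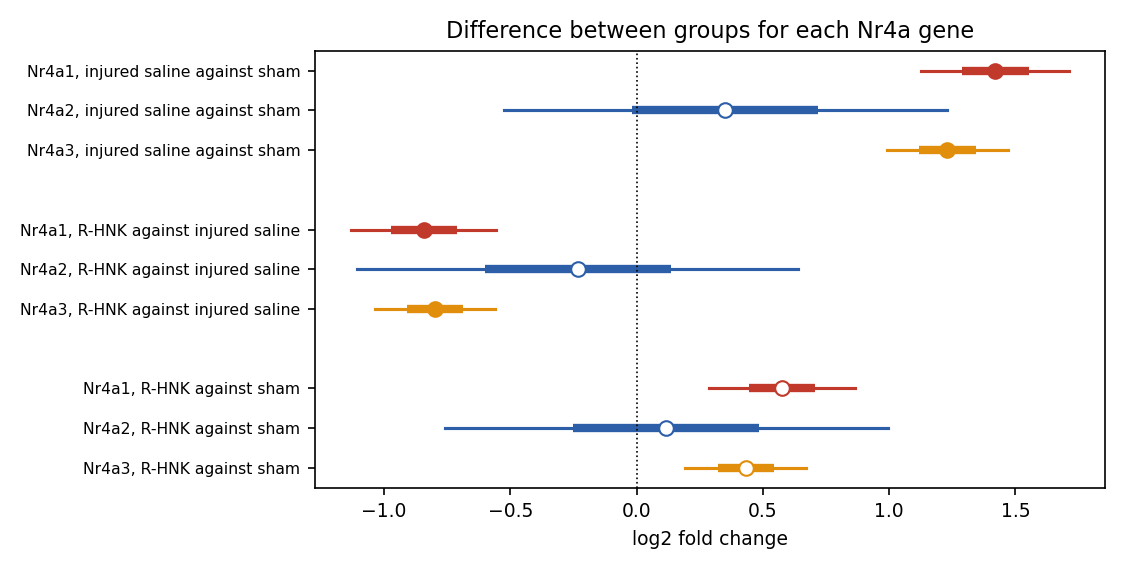
Log2 fold change (horizontal axis) of each Nr4a gene in the 3 comparisons, with thick bars for ± 1 SE, thin bars for the 95% interval and filled circles for an adjusted p under 0.05. Nr4a1 and Nr4a3 lie at 1.42 and 1.23 in injured saline against sham mice and at -0.84 and -0.80 in R-HNK against injured saline mice, while the Nr4a2 intervals hold 0 in all 3.

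**Figure D3:**
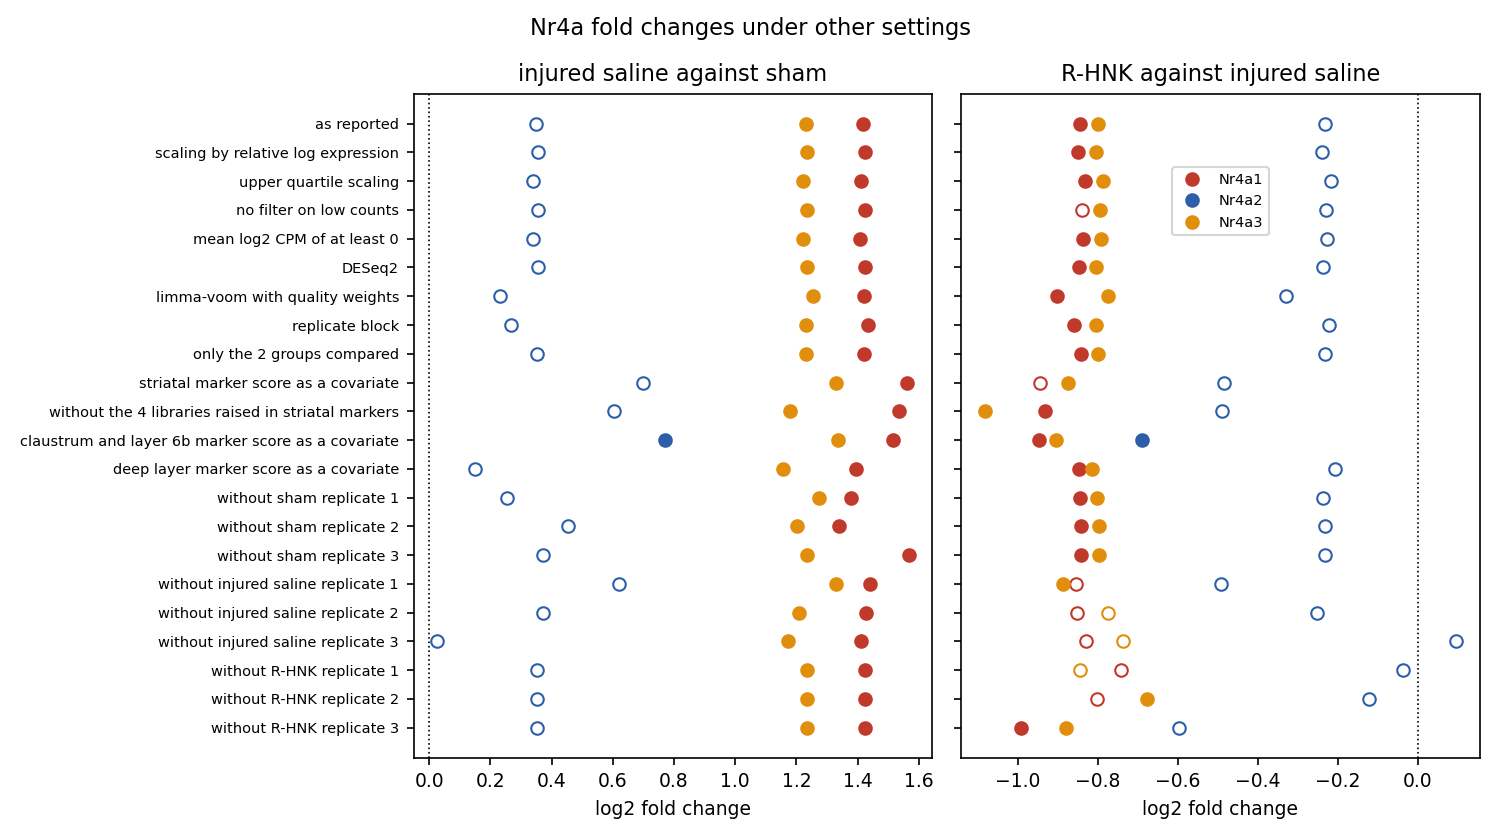
Log2 fold change (horizontal axes) of the 3 genes in the first 2 comparisons as reported and under each of 21 other settings (rows), with filled circles for an adjusted p under 0.05. Nr4a1 and Nr4a3 stay between 1.16 and 1.57 in injured saline against sham mice under all of them, while their falls with R-HNK lose the call in several fits that leave out 1 library.

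Nr4a2 varied between mice of the same group. Its highest value was 2.03 times its lowest among R-HNK mice and 2.27 times among injured saline mice, against 1.34 times among sham mice. For Nr4a1 the same ratios were 1.40, 1.03 and 1.35, and for Nr4a3 they were 1.35, 1.22 and 1.09. The ratio of Nr4a2 was thus the highest of the 3 in R-HNK and injured saline mice, but not in sham mice, and the difference in spread was not tested. The mice with most Nr4a2 were R-HNK replicate 3, injured saline replicate 3 and sham replicate 2. Because Nr4a2 marks claustrum and layer 6b neurons, 11 other markers of those cells were read beside it.

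In all 3 groups, 4 of the 11 markers, Gnb4, Oprk1, Nxph4 and Ccn2, were highest in the same mouse as Nr4a2, and 2 of them, Gnb4 and Oprk1, put the 3 mice in the same order as Nr4a2 in every group. Gnb4, a G protein beta subunit, measured 41.1, 41.3 and 50.4 CPM in the R-HNK mice, 34.3, 38.6 and 51.7 CPM in the injured saline mice and 40.9, 50.8 and 47.1 CPM in the sham mice. Oprk1, the kappa opioid receptor, measured 8.08, 8.14 and 13.4 CPM in the R-HNK mice, 6.87, 7.05 and 8.86 CPM in the injured saline mice and 6.82, 14.2 and 12.4 CPM in the sham mice. No marker of this list put the mice in the order of Nr4a1 or of Nr4a3 in all groups, and none of the 15 striatal markers did so for any Nr4a gene. The looser match, the same highest mouse in all 3 groups, was not limited to Nr4a2 and this list. Of the 15 striatal markers 2, Drd1 and Tac1, matched Nr4a2 in this way, and 1 claustrum and layer 6b marker, Ntng2, matched Nr4a3. Gnb4, Oprk1, Nxph4 and Ccn2 were singled out after their values were seen, and other markers of the list went the other way. In the sham mice Rxfp1 measured 28.5, 21.4 and 23.9 CPM and Gng2 176, 158 and 161 CPM, the reverse of the Nr4a2 order. Moxd1 matched the Nr4a2 order in 0 groups. How many of all genes match Nr4a2 in these ways was not counted.

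With the mean score of the 11 claustrum and layer 6b markers as a covariate, Nr4a2 passed in both main comparisons. Its log2 fold change was then 0.77 in injured saline against sham mice (adjusted p = 0.00844) and -0.69 in R-HNK against injured saline mice (0.0395), within ranges of 0.00844 to 0.984 and 0.0395 to 1 over all settings tried. With this covariate Nr4a1 and Nr4a3 had 1.52 and 1.34 in the first comparison, and -0.95 and -0.90 in the other, and all of these passed. The score of the injured saline mice was -0.25, -0.10 and 0.07, and that of the sham mice 0.01, 0.11 and 0.04. R-HNK mice had -0.05, -0.05 and 0.23. The groups overlap in this score, and no marker of the list passed in either comparison, but 9 libraries leave few degrees of freedom for such a fit. A deep layer score had no such effect, with Nr4a2 at 0.15 in the first comparison (adjusted p = 0.875).

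**Figure D4:**
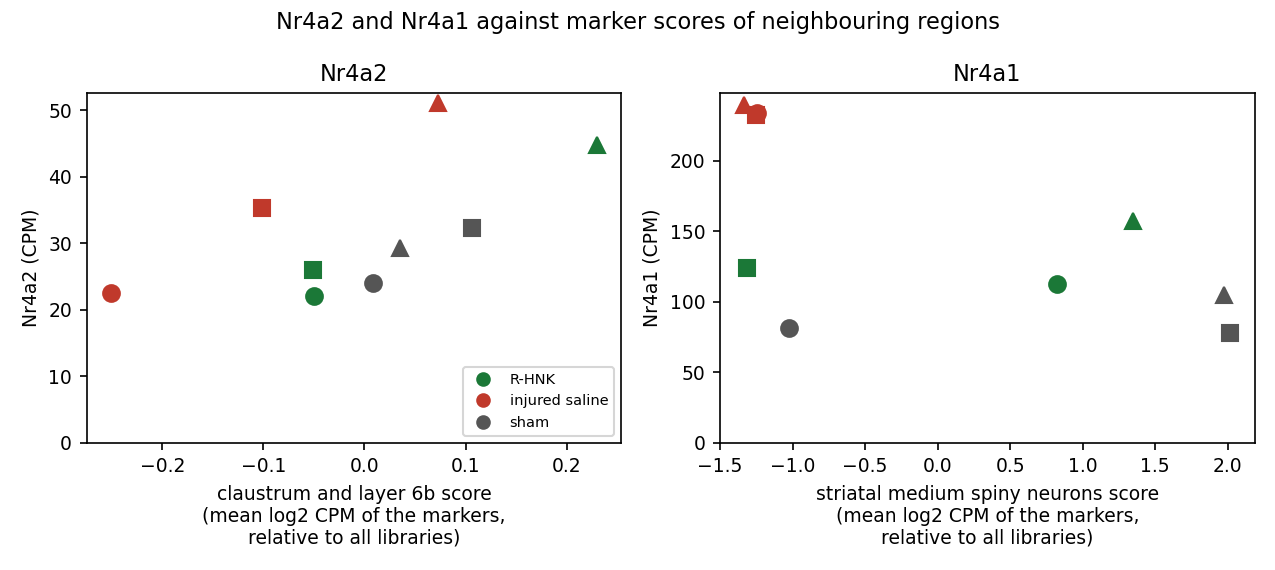
Left, Nr4a2 (CPM) against the claustrum and layer 6b score, and right, Nr4a1 (CPM) against the striatal score (horizontal axes, mean log2 CPM of the markers relative to all libraries), 1 symbol per mouse, coloured by group with the shape giving the replicate. Within each group Nr4a2 is highest in the mouse with the highest score, at 44.8, 51.1 and 32.3 CPM in R-HNK, injured saline and sham mice. Nr4a1 shows no such order, with 77.6 and 81.7 CPM in sham mice at opposite ends of the striatal score.

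Whether the genes of the family moved apart was tested by their ratio within each library, a test added after the values were seen. The log2 ratio of Nr4a1 to Nr4a2 CPM averaged 2.14 ± 0.29 in R-HNK mice, 2.77 ± 0.58 in injured saline mice and 1.62 ± 0.31 in sham mice. An exact permutation test over all 1680 ways to form the 3 groups gave p = 0.025, two-sided by construction, and 0.075 after adjustment over the 3 ratios tested (smallest possible p = 0.00357). The ratio of Nr4a3 to Nr4a2 averaged 0.44 ± 0.48, 1.02 ± 0.44 and 0.08 ± 0.28 in R-HNK, injured saline and sham mice. It gave p = 0.0821 (0.123 adjusted) in the same exact test. The ratio of Nr4a1 to Nr4a3 averaged 1.70 ± 0.27, 1.75 ± 0.14 and 1.55 ± 0.23 in R-HNK, injured saline and sham mice (exact p = 0.532). So over the 3 groups together Nr4a2 is not shown to differ from its relatives, once 3 ratios are allowed for. Whether it differs in the response to injury or to R-HNK alone was not tested.

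The genes most like each receptor were found by the root mean square distance between profiles over the 9 libraries, in log2 units after each gene was centred on its own mean. For Nr4a1, whose own spread was 0.61, the nearest of 13436 genes were Fos at 0.12, Sik1 at 0.13, Dusp1 at 0.15, Egr2 at 0.18 and Klk8 at 0.18. Fos is a subunit of AP-1, Sik1 a kinase that holds back CREB coactivators, Dusp1 a phosphatase of MAP kinases, Egr2 an inducible zinc finger factor and Klk8 a secreted protease. For Nr4a3, with a spread of 0.53, they were Trib1 at 0.14, Per1 at 0.15, Dusp6 at 0.16, Csrnp1 at 0.17 and Gadd45a at 0.17. Trib1 is a pseudokinase, Per1 a clock repressor, Dusp6 an ERK phosphatase, Csrnp1 a nuclear factor and Gadd45a a stress response gene.

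Nr4a1 and Nr4a3 ranked 9 in each other's order, at 0.20. Nr4a2 lay at 0.58 from Nr4a1 and 0.51 from Nr4a3, ranks 3360 and 4745 in their orders. In the order of Nr4a2 itself, Nr4a1 ranked 12281 and Nr4a3 ranked 11329 of the 13436 genes. Its own nearest genes were no close match: Zfp438, Kazald1, Grhl3, Bves and Eif2ak2 lay at 0.24 to 0.27, against its own spread of 0.41. Over the 5 libraries not raised in striatal markers, 2 of the 5 nearest genes were shared for Nr4a1, 3 of 5 for Nr4a3 and 0 of 5 for Nr4a2.

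Genes around the family were read from 5 lists. Of 37 other nuclear receptors tested, of 46 listed, none passed in edgeR in either of the first 2 comparisons (9 and 2 had p under 0.05 before adjustment; DESeq2 passed 2 and 1, limma-voom 2 and 0). Their median log2 fold changes were 0.04 and -0.04, against -0.02 and 0.01 over all genes. Rara, a retinoic acid receptor, came nearest. It averaged 18.2 ± 2.60 CPM in injured saline mice and 11.1 ± 2.26 CPM in sham mice, with a log2 fold change of 0.71 ± 0.16 (adjusted p = 0.0548). In R-HNK mice it averaged 11.5 ± 1.61 CPM, -0.67 ± 0.16 against injured saline mice (0.258). Nr3c2, the mineralocorticoid receptor, had -0.42 ± 0.14 in injured saline against sham mice (0.177), and Esrrb, an estrogen-related receptor, had -0.83 ± 0.31 in R-HNK against injured saline mice (0.609).

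Another list held 37 regulators of Nr4a transcription. They are CREB, MEF2, SRF, their coactivators and kinases, the MEF2 repressors Hdac4, Hdac5 and Hdac9, and also calcineurin and Nfatc genes. None passed in edgeR in these comparisons, with medians of -0.03 and -0.03. Before adjustment 7 and 3 had p under 0.05, against 3611 and 1625 of all 21765 genes. DESeq2 passed 2 and 0 of the list, and limma-voom 1 and 0. Rps6ka5, a kinase of CREB and histone H3, had -0.58 ± 0.16 in injured saline against sham mice (adjusted p = 0.108) and 0.42 ± 0.16 in R-HNK against injured saline mice (0.613). Crem, which encodes cyclic AMP response factors including the inducible repressor ICER, had 0.47 ± 0.14 and -0.35 ± 0.14 (0.122 and 0.613).

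Of 20 partners and cofactors tested, of 21 listed, none passed in edgeR, with medians of -0.03 and -0.01. Before adjustment 3 and 0 had p under 0.05, against 3611 and 1625 of all 21765 genes. DESeq2 passed 1 and 0 of the list, and limma-voom none. Rxrg, a retinoid X receptor, is also a striatal marker. It measured 17.3, 7.43 and 17.5 CPM in the R-HNK mice, 7.60, 7.56 and 5.08 CPM in the injured saline mice and 6.99, 35.2 and 32.5 CPM in the sham mice. It was thus high in the 4 libraries raised in striatal markers (-1.88 ± 0.65, adjusted p = 0.232, and 1.06 ± 0.64, 0.738). Hdac1, a histone deacetylase, averaged 21.98 ± 1.08 CPM in R-HNK mice, 19.8 ± 1.62 CPM in injured saline mice and 23.4 ± 2.00 CPM in sham mice, and did not pass (-0.24 ± 0.10, adjusted p = 0.244, and 0.15 ± 0.10, 0.738).

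Genes described as NR4A targets in brain or other tissues formed the next list. Over all 21765 genes, 0.515% passed as higher in injured saline against sham mice. In that comparison DESeq2 passed 1185 of all genes and limma-voom 1135. Before adjustment 3611 of all genes had p under 0.05 there, and 1625 in R-HNK against injured saline mice. Of 24 tested, of 31 listed, 1 rose in injured saline against sham mice (8 with p under 0.05 before adjustment; DESeq2 passed 4, limma-voom 4, and edgeR 2 with the striatal covariate and 2 with the striatal-rich libraries left out; median 0.09) and none passed in R-HNK against injured saline mice in edgeR, DESeq2 or limma-voom (4 with p under 0.05 before adjustment; median 0.00). The gene that rose was Fosl2, an AP-1 subunit, at 65.3 ± 5.50 CPM in injured saline mice and 38.2 ± 2.97 CPM in sham mice (0.78 ± 0.13, adjusted p = 0.0156), and 52.1 ± 11.1 CPM in R-HNK mice. Fosl2 is itself an immediate early gene. Its edgeR call was lost if sham replicate 2 was dropped (log2 fold change 0.75, adjusted p = 0.0877). It was also lost on dropping replicate 1 or replicate 3 of injured saline (0.74 and 0.76, adjusted p = 0.0599 and 0.0909). Its adjusted p spanned 2.31e-06 to 0.0909 over every setting. Bdnf, a neurotrophin, had 0.60 ± 0.14 and -0.48 ± 0.14 (0.0684 and 0.433), and Nrp1, a semaphorin and VEGF coreceptor, 0.36 ± 0.10 and -0.30 ± 0.10 (0.0956 and 0.524). Th, tyrosine hydroxylase, a target of Nr4a2 in dopamine neurons, measured 4.24, 11.8 and 3.34 CPM in the R-HNK mice, 5.50, 3.77 and 2.78 CPM in the injured saline mice and 18.6, 10.3 and 6.62 CPM in the sham mice. Foxa2 and En1, which mark dopamine neurons, were at 0 in every library.

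Of 40 other immediate early genes tested, 21 rose in injured saline against sham mice and 19 did not pass, with a median of 0.91, where 0.515% of all genes passed as higher. DESeq2 passed 29 of them, limma-voom 27, and edgeR with the striatal covariate 21. In R-HNK against injured saline mice 7 fell and 33 did not pass, with a median of -0.48, where 0.0827% of all genes passed as lower. Here DESeq2 passed 17, limma-voom 14, and edgeR with the striatal covariate 11. Nr4a1 and Nr4a3 exceeded both medians in size, and Nr4a2 lay between them and 0. With the 4 striatal-rich libraries left out, 21 and 9 passed. The 4 with the smallest p in the first comparison were Trib1, Dusp6, Egr4 and Per1, and in the other Trib1, Csrnp1, Dusp6 and Per1. Trib1 averaged 27.6 ± 2.04 CPM in R-HNK mice, 55.3 ± 5.05 CPM in injured saline mice and 19.9 ± 1.79 CPM in sham mice, a fall with R-HNK past the threshold (adjusted p = 0.00221). Csrnp1 averaged 8.64 ± 1.21, 18.3 ± 0.803 and 7.55 ± 0.0473 CPM in the same groups (-1.08 ± 0.12, adjusted p = 0.00335). In R-HNK against sham mice none of the 40 passed in edgeR (17 with p under 0.05 before adjustment; DESeq2 passed 3, limma-voom 0), with a median of 0.29, and 38 of the 40 were positive, against 48.3% of all genes. This list was drawn up with earlier results of these data known.

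**Figure D5:**
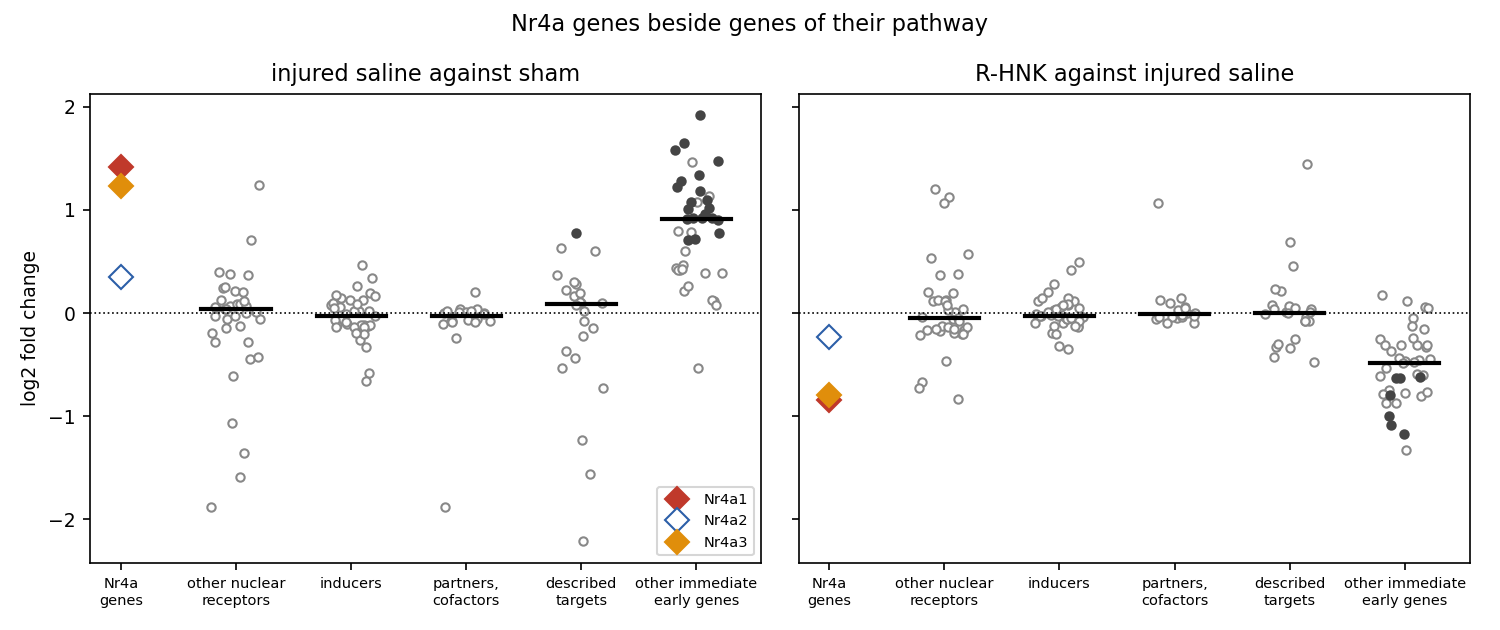
Log2 fold change (vertical axis) of the Nr4a genes (diamonds) and of the 5 lists (circles, 1 per gene, with horizontal bars at the median) in the first 2 comparisons, filled where the adjusted p was under 0.05. The other immediate early genes have medians of 0.91 and -0.48, while the other 4 lists lie around 0 with 1 filled circle, Fosl2, in the first comparison and none in the other.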

How the data were processed

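Bulk RNA-seq of the prelimbic cortex was analysed from the authors' deposited table of expected counts (whole-number estimated reads per gene symbol, not normalized). The submitters' processing notes name HISAT2 2.0.5, featureCounts 1.5.0-p3 and mm10, while the name of the table gives StringTie; strand and pair settings are not given in the sources used here. The 107 symbols that occur more than once were kept apart.

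Counts were read as whole numbers and fitted in R 4.3.3 with edgeR 4.0.16: filterByExpr by group (21765 genes, 99.96% of counts), TMM factors from 0.979 to 1.03, and a robust quasi-likelihood fit over all 9 libraries with 1 mean per group. A gene passed when its p, adjusted over all genes by Benjamini-Hochberg, was under 0.05. CPM use TMM-scaled totals, and SE were worked back from the F statistic. RPKM divide CPM by the union of GENCODE M21 exons. Log2 CPM used a prior count of 2. With 3 mice against 3, an exact permutation test of 1 gene cannot go below 0.1.

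Genes were named by rule: the 3 members; the 5 genes with the nearest profile to each, among genes whose mean log2 CPM was 0 or more and whose symbol is not a model or clone name; and of each list up to 4 that passed with the smallest p in each of the first 2 comparisons, or the 2 with the smallest p; 1 gene of the partner list that this rule names is not reported here. Outside the rule, Thra, Nr1d1, Th, the named repressors and the cell type markers were picked after their values were seen. Other settings were 2 scalings, 2 filters, DESeq2 1.42.0, limma-voom (limma 3.58.1), a replicate block, the 2 compared groups alone, 3 marker scores as covariates, leaving out the 4 striatal-rich libraries, and leaving out each library. The members, lists and settings were chosen with earlier results of these data known. Replicates of a group differed by more than sampling noise. The procedure was run on counts simulated without tissue differences between libraries, so that run cannot show how such differences affect the calls. Protein and splicing were not analysed here.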

Additional observations from a re-analysis of the deposited data

How the results depend on the processing

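In injured saline against sham mice the direction and call of Nr4a1 and Nr4a3 held in all 21 other settings, with log2 fold changes of 1.34 to 1.57 and 1.16 to 1.34. Nr4a2 passed with the claustrum and layer 6b score alone (0.77, and -0.69 in R-HNK against injured saline mice); the cause was not tested. In R-HNK against injured saline mice Nr4a1 missed the edgeR threshold with no filter (-0.84, adjusted p = 0.0835) and with the striatal covariate (-0.94, adjusted p = 0.0518). Each of these settings left 1 of the 3 genes called. When 1 library was left out, 0 to 2 of the 3 were called, with -0.99 to -0.74 for Nr4a1, -0.89 to -0.68 for Nr4a3 and -0.60 to 0.10 for Nr4a2, which was above 0 without injured saline replicate 3. In R-HNK against sham mice Nr4a1 passed with DESeq2 (0.58), which left 1 gene called. Nr4a2 turned lower with limma-voom (-0.10), with the deep layer score (-0.056) and without R-HNK replicate 3, within -0.24 to 0.32 when 1 library was left out; the cause was not tested.

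Over all genes 233 passed in injured saline against sham mice, but 1185 with DESeq2, 1135 with limma-voom, 1063 with the deep layer score, 370 with no filter, 81 with the claustrum score, 86 with the striatal score and 86 without the 4 raised libraries. Leaving out 1 library gave 60 (injured saline replicate 3) to 1170 (sham replicate 1). In R-HNK against injured saline mice 26 passed, but 140 with DESeq2, 49 with limma-voom, 53 with the 2 groups alone, 17 with the claustrum score and 7 to 56 with 1 library left out. In R-HNK against sham mice 1 passed, but 10 with DESeq2, 0 with limma-voom, 0 with the stricter filter, 25 without the 4 raised libraries and 1 to 11 with 1 library left out. For any difference 83 passed, but 347 with the deep layer score, 128 with no filter, 36 and 40 with the claustrum and striatal scores and 21 to 528 with 1 library left out. The 2 other scalings shifted log2 fold changes by at most 0.0118 in the median over all genes.

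The replicate numbers are not stated to pair mice. To look for pairing, each group's mean log2 CPM was subtracted, gene by gene, for genes with a mean log2 CPM above 0. These deviations correlated between -0.167 and 0.234 for same-numbered libraries, with 3 of 9 libraries closest to their own number. With the replicate block 162, 16, 2 and 43 genes passed in the 3 comparisons and the test of any difference, and the calls of the 3 Nr4a genes were as reported.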
